A study of Danio rerio with 27 samples.

Results

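Cells sorted from the gill of adult zebrafish mutant for spic were compared with cells sorted through the same gate from the epidermis of such mutants. The comparison used 15 of the 27 libraries of the study, 8 from mutant gill and 7 from mutant epidermis, and the members were chosen by their labels alone. Fish described as siblings gave 5 gill and 7 epidermis libraries. These are used below to set the tissue difference of the mutants beside that of siblings. Sibling levels of spic, spi1a and mpeg1.1 are also given beside those of mutants. All 4 groups were adults of the transgenic strain Tg(spic:EGFP; mpeg1:DsRedx), so mutants and siblings alike carried a green spic reporter and a red mpeg1 reporter. Each library held 30 cells that were positive for EGFP and negative for DsRedx, and its cDNA was amplified over 23 PCR cycles after Smart-seq2. Smart-seq2 copies polyadenylated RNA into full-length cDNA. The sources used here do not give the mutant allele, the genotype of the siblings, or the number of fish behind a group's libraries. All p-values therefore measure the spread between libraries, part of which may be technical.

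Metaphocytes are cells of zebrafish skin, gill and gut that resemble myeloid cells but do not come from blood precursors: those of the skin derive from ectoderm and those of the gill from endoderm. spic encodes an Ets-family transcription factor, and the study as titled concerns its part in the maturation of metaphocyte progenitors. The gill is built from the pharyngeal arches and pouches, whose patterning genes include the Pax1, Pax9 and Tbx1 transcription factors, while the skin of the body carries its own positional code, including Hox genes. Both epithelia also hold sensory cells that store transmitters, Merkel cells in the skin and neuroendocrine cells in the gill. Genes used by such cells encode the transcription factors Atoh1 and Sox2, granule proteins and calcium-binding proteins. Levels are given in TPM, a unit that divides reads by gene length and scales each library to a fixed sum. Differences are mutant gill minus mutant epidermis on the log2(TPM + 1) scale. The p-values are from limma and are adjusted over the 10115 genes that reached 1 TPM in 5 or more of the 15 libraries.

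The libraries were not alike. Mutant gill libraries had 8937 ± 1126 genes at 1 TPM or more (SD, n = 8), against 7534 ± 814 in mutant epidermis (SD, n = 7), a difference of 1403 genes. An exact permutation test gave a two-sided p = 0.0193, where the smallest p the design allows is 0.000311. Mutant epidermis 7 stood apart: the summed level of 16 Merkel-like and neuroendocrine marker genes was 777 TPM there, against 5180 to 11124 TPM in the other 6 epidermis libraries. Mutant gill 3 had the highest summed level of 40 ionocyte markers, 16632 TPM against 1425 to 7353 TPM in the other gill libraries, and mutant gill 6 was the only gill library with spi1b above 1 TPM, at 74.04 TPM. The tissue counts given below were 174 genes with all 15 libraries, 187 without mutant epidermis 7, and 121 without these 3 libraries together, an alternative added after their values were seen. Leaving out other single libraries moved the count further, to 97 without mutant gill 2, 111 without mutant epidermis 5 and 301 without mutant gill 8.

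**Figure D1:**
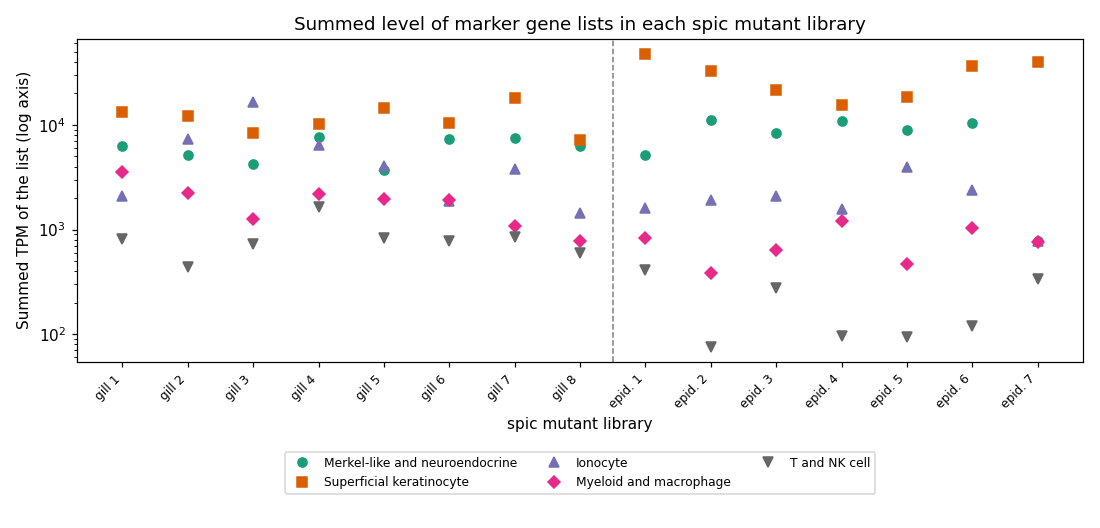
Summed TPM (log axis) of 5 lists of cell type markers in each spic mutant library, gill libraries left of the dashed line and epidermis libraries right of it; each point is the sum over a list in 1 library. The Merkel-like and neuroendocrine sum stood between 3669 and 7736 TPM in gill and between 5180 and 11124 TPM in 6 of 7 epidermis libraries, and fell to 777 TPM in mutant epidermis 7.

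The mutated gene itself was low in both tissues. spic stood at 2.92 to 53.3 TPM (median 12.6 TPM) in mutant gill, and at 7.37 to 125 TPM (median 32.6 TPM) in mutant epidermis, so the groups overlapped. The log2 difference was -0.96, which an exact permutation test did not separate from the spread between libraries (two-sided p = 0.190). Sibling gill had 140.4 to 499.9 TPM and sibling epidermis 561 to 760.2 TPM, above every mutant library of the same tissue. Whether the transcript left in mutants is functional cannot be read from these values. spi1a, a related Ets factor of myeloid cells, was likewise low, with medians of 6.71 TPM in mutant gill and 5.22 TPM in mutant epidermis, against 592 TPM in sibling gill and 564 TPM in sibling epidermis. mpeg1.1, the macrophage gene whose reporter the gate excluded, had medians of 1.57 TPM in mutant gill and 1.395 TPM in mutant epidermis, against 116 TPM in sibling gill and 216 TPM in sibling epidermis, sorted through the same gate. mpeg1.2 was at 0 in every mutant epidermis library and under 1 TPM in every mutant gill library but mutant gill 3, at 35.1 TPM. The sorted cells are labelled as metaphocyte progenitors, but with spi1a this low and the neuroendocrine markers this high the mutant cells are called here sorted cells, by their gate.

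Between the tissues, 174 of 10115 genes passed an adjusted p of 0.05, which is 1.72% of the genes tested. Of these, 132 were higher in gill (1.30% of genes tested) and 42 were lower (0.415%). In 59 of the 174 the libraries of the tissues did not overlap, 45 with gill above epidermis and 14 with gill below. Over all genes tested, 116 did not overlap (1.15%), 100 with gill above (0.989%) and 16 with gill below (0.158%). Genes that passed the filter on low values only through 1 tissue tend to separate in this way. For example, pax1a, pax1b, epas1b, tnnc1b, cldnf and adrb3a reached 1 TPM in 0 of 7 mutant epidermis libraries. Likewise rfc2 reached it in 0 of 8 mutant gill libraries. For such genes a lack of overlap is given as a value and is not separate support for the call. The split of 75.9% higher depends on the scale, because the median gene tested was 0.47 log2 units higher in gill. When each library was centred on its median the median difference became -0.52, and the calls split into 26 higher and 142 lower. With quantile normalization it became -0.02, and they split into 78 higher and 77 lower. When the fit allowed for how many genes each library detected, 30 genes passed, 19 higher and 11 lower. In these bulk libraries fewer cells of a type and less RNA per cell cannot be told apart. Lists below also carry a count of members at an unadjusted limma p under 0.05. That count is not given here over all genes tested. By the rank test 1741 of the 10115 genes had an unadjusted p under 0.05. The list counts are therefore given as values and are not read as enrichment.

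The 14 named genes with the largest rise in gill ran from 5.002 to 6.36 log2 units, and the 14 with the largest fall from 4.31 to 7.46 log2 units in size. Of the 14 higher genes all kept their call when any single library was left out, 13 under median centring, 14 under quantile normalization and 9 in the fit that allowed for detected genes. Of the 14 lower genes 9 kept their call in every fit with a library left out, 14 under each of the scalings, and 5 when detected genes were allowed for.

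Pharyngeal patterning genes were among those higher in gill. pax9, a paired-box factor of the pharyngeal pouches, stood at 70.4 to 247 TPM (median 155 TPM) in mutant gill, against 0.342 to 1.92 TPM with a median of 0.776 TPM in mutant epidermis (log2 difference 6.28 ± 0.78 SE, adjusted p = 2.62e-05). Its paralogues pax1a and pax1b had medians of 88.6 and 29.1 TPM in mutant gill, against 0.208 and 0.356 TPM in mutant epidermis. pax1a and pax1b reached 1 TPM in 0 of 7 mutant epidermis libraries, so they passed the filter on low values only through gill. Every gill library was above every epidermis library for all 3 Pax genes, although pax1a was as low as 1.62 TPM in mutant gill 2. All passed, pax1a with a log2 difference 5.41 ± 0.99 SE, adjusted p = 0.00337, and pax1b with a log2 difference 4.76 ± 0.87 SE, adjusted p = 0.00323.

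gata3, a zinc-finger factor used in pharyngeal arches, sensory epithelia and lymphocytes, stood at 298 to 1207 TPM (median 705 TPM) in mutant gill and at 4.01 to 174 TPM (median 35.9 TPM) in mutant epidermis (log2 difference 4.23 ± 0.72 SE, adjusted p = 0.00147), again without overlap. tbx1, a T-box factor of the pharynx, stood at 21.4 to 417 TPM (median 132 TPM) in mutant gill and at 0.141 to 32.8 TPM (median 3.6003 TPM) in mutant epidermis, with a slight overlap (log2 difference 4.62 ± 0.92 SE, adjusted p = 0.00704). Among 21 tested patterning factors of the Tbx, Pax, Eya, Irx, Gata and related families, 6 were higher in gill and 1, meis1b, was lower. Of the 21, 11 had an unadjusted p under 0.05, and the median log2 difference was 0.92 against 0.47 over all genes tested. Under median centring 4 of the list were higher and 2 lower, and under quantile normalization 5 and 2.

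Position genes of the skin side were fewer. meis1b, a cofactor of Hox proteins, stood at 0.386 to 136 TPM (median 1.45 TPM) in mutant gill and at 34.1 to 291 TPM (median 124 TPM) in mutant epidermis (log2 difference -4.31 ± 1.03 SE, adjusted p = 0.0256). dlx3b, a homeobox factor of ectoderm, stood at 0 to 90.8 TPM (median 1.399 TPM) in mutant gill and at 3.38 to 301 TPM (median 118 TPM) in mutant epidermis (log2 difference -4.46 ± 1.06 SE, adjusted p = 0.0252), and 1 gill library, mutant gill 6, held that highest gill value. Among 5 tested Dlx, Msx, Barx and Hand factors dlx3b was the only gene called, as it was under both other scalings, while the rank test called 0. Only 2 Hox genes of 47 in the table passed the filter on low values. hoxc9a, a posterior Hox gene, stood at 0 to 0.907 TPM in mutant gill, under 1 TPM throughout, and at 0.805 to 89.8 TPM (median 49.1 TPM) in mutant epidermis (log2 difference -4.26 ± 1.01 SE, adjusted p = 0.0247). hoxb3a, an anterior Hox gene, stood at 0.287 to 72.3 TPM in mutant gill and 0 to 0.0615 TPM in mutant epidermis, without overlap, but missed the threshold (log2 difference 3.15 ± 0.86 SE, adjusted p = 0.0543). The rank test called both Hox genes, in these directions. Each, however, passed the filter on low values only through the tissue where it was high. hoxc9a reached 1 TPM in 6 of 7 mutant epidermis and 0 of 8 mutant gill libraries. For hoxb3a it was 6 of 8 mutant gill and 0 of 7 mutant epidermis libraries. Genes let in this way tend to separate by rank, so no Hox pattern is read from these calls. Leaving out 1 library ended the call of meis1b in 5 of 15 fits (highest adjusted p = 0.0623 without mutant epidermis 6). It ended that of dlx3b without mutant gill 2 and mutant epidermis 1, 4 or 5 (highest adjusted p = 0.0712), and that of hoxc9a without mutant gill 2 (adjusted p = 0.0512).

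**Figure D2:**
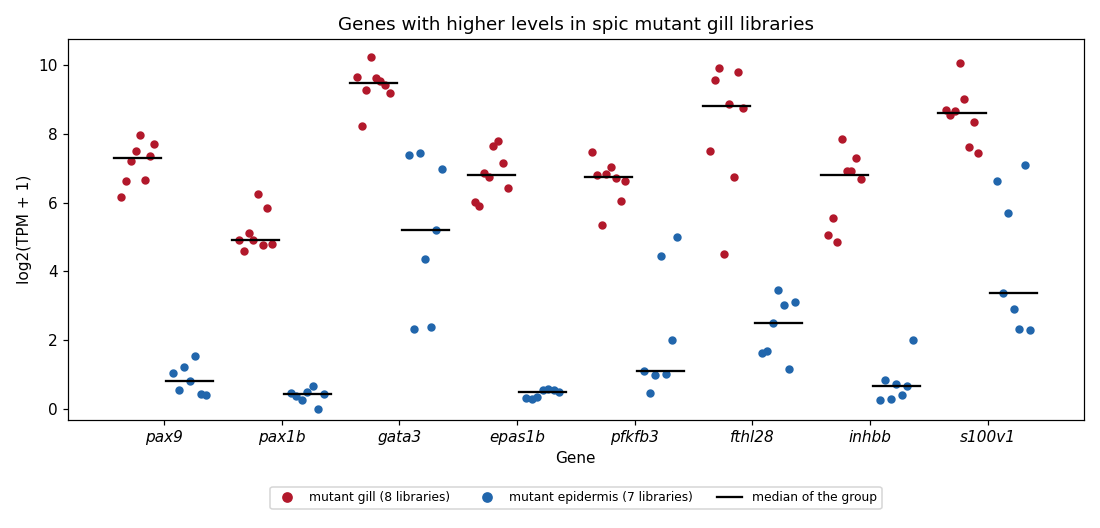
Level on the log2(TPM + 1) scale of 8 genes in mutant gill libraries (red, 8 points a gene) and mutant epidermis libraries (blue, 7 points a gene), with a black line at each median. Every red point lies above every blue point of its gene; epas1b, for example, stood at 58.3 TPM or more in gill and at 0.506 TPM or less in epidermis.

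3 genes of the oxygen-sensing pathway were higher in gill. Hypoxia-inducible factors are transcription factors that prolyl hydroxylases mark for destruction while oxygen is at hand. epas1b, which encodes a HIF-2 alpha factor, stood at 58.3 to 218 TPM (median 111 TPM) in mutant gill and at 0.228 to 0.506 TPM (median 0.415 TPM) in mutant epidermis (log2 difference 6.36 ± 0.81 SE, adjusted p = 3.59e-05). egln3, a prolyl hydroxylase, stood at 0.373 to 139.8 TPM (median 59.5 TPM) in mutant gill, and 0 to 0.721 TPM in mutant epidermis (log2 difference 4.69 ± 1.08 SE, adjusted p = 0.0234). pfkfb3, which makes the activator of glycolysis fructose 2,6-bisphosphate, stood at 39.9 to 176 TPM (median 107 TPM) in mutant gill and at 0.383 to 31.2 TPM (median 1.15 TPM) in mutant epidermis (log2 difference 4.45 ± 0.86 SE, adjusted p = 0.00576).

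The libraries did not overlap for epas1b and pfkfb3, whereas the lowest gill library for egln3 was within the epidermis range. These were the only calls among 31 tested hypoxia-inducible factors, hydroxylases and targets, of which 16 had an unadjusted p under 0.05. The median log2 difference of the list was 1.32, and 1 of the 3 calls remained under median centring. adma, which encodes the vasodilator adrenomedullin, had medians of 356 TPM in mutant gill and 2.03 TPM in mutant epidermis but did not pass (log2 difference 4.56 ± 1.26 SE, adjusted p = 0.0577). Of 21 tested genes of glycolysis and glucose transport, a list without pfkfb3, limma and the rank test called 0, with 5 at an unadjusted p under 0.05 and a median difference of 0.64. pdk2b, a pyruvate dehydrogenase kinase, stood at 1.46 to 379 TPM (median 105 TPM) in mutant gill and at 0 to 2.89 TPM (median 0.589 TPM) in mutant epidermis (log2 difference 5.002 ± 1.08 SE, adjusted p = 0.0142), with overlap at the low end of gill.

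Retinoic acid, a vitamin A derivative that patterns the pharynx, is made from retinol through retinal and broken down by Cyp26 enzymes, and 1 gene of each step was higher in gill. cyp26b1 stood at 22.1 to 1546 TPM (median 495 TPM) in mutant gill and at 0.17997 to 31.95 TPM (median 4.16 TPM) in mutant epidermis (log2 difference 5.98 ± 0.93 SE, adjusted p = 0.000549). rdh10b, which oxidises retinol, stood at 52.3 to 989 TPM (median 477 TPM) in mutant gill and at 4.12 to 591 TPM (median 39.3 TPM) in mutant epidermis (log2 difference 3.496 ± 0.897 SE, adjusted p = 0.0401). aldh1a3, which makes retinoic acid from retinal, stood at 206 to 3255 TPM (median 1616 TPM) in mutant gill and at 8.19 to 1070.4 TPM (median 37.1 TPM) in mutant epidermis (log2 difference 3.59 ± 0.93 SE, adjusted p = 0.0404). The groups overlapped for all 3 genes, for cyp26b1 only between mutant gill 3 and mutant epidermis 7. These 3 were the calls among 11 tested genes of retinoid synthesis, binding and breakdown, of which 8 had an unadjusted p under 0.05. The median log2 difference of the list was 2.89 against 0.47 over all genes tested. Under median centring and under quantile normalization 1 was called. cyp26b1 kept its call in every fit with a library left out, while rdh10b lost it in 10 of 15 and aldh1a3 in 9 of 15. Without mutant epidermis 2 their adjusted p reached 0.0872 and 0.0906.

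Several genes of secreted signals were higher in gill. stc1, which encodes the calcium-regulating hormone stanniocalcin, stood at 11.8 to 4967 TPM (median 1254 TPM) in mutant gill and at 0 to 204 TPM (median 8.44 TPM) in mutant epidermis (log2 difference 6.19 ± 1.08 SE, adjusted p = 0.00214). inhbb, a subunit of activin, stood at 27.7 to 229 TPM (median 111 TPM) in mutant gill and at 0.208 to 3.06 TPM (median 0.607 TPM) in mutant epidermis (log2 difference 5.63 ± 0.86 SE, adjusted p = 0.000476), without overlap. ntf3, the neurotrophin that sustains sensory neurons, stood at 1.77 to 237 TPM (median 75.3 TPM) in mutant gill and 0 to 1.37 TPM in mutant epidermis (log2 difference 4.65 ± 1.11 SE, adjusted p = 0.0256).

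bmp2a, a bone morphogenetic protein, had a median of 56.5 TPM in mutant gill and was at or under 2.27 TPM in mutant epidermis (log2 difference 4.51 ± 1.18 SE, adjusted p = 0.0443). id2a, a target of that pathway that blocks bHLH factors, stood at 1.87 to 336 TPM (median 62.6 TPM) in mutant gill and at 0 to 1.19 TPM (median 0.901 TPM) in mutant epidermis (log2 difference 4.86 ± 1.04 SE, adjusted p = 0.0135). With inhbb these were the 3 calls of 27 tested Bmp, Tgf-beta and activin genes (median difference 1.49; 1 called under median centring, 2 under quantile normalization). il11a, a cytokine of the interleukin 6 family, and ackr3b, a receptor that clears the chemokine Cxcl12, were the 2 calls of 46 tested chemokines, cytokines and receptors, of which 0 were higher and 1 lower under median centring. They had medians of 80.1 and 95.4 TPM in mutant gill, against 0.556 and 1.501 TPM in mutant epidermis (adjusted p = 0.0366 and 0.0276). Leaving out 1 library ended the call of ntf3 in 2 fits, without mutant gill 2 or mutant epidermis 5, of bmp2a in 12, of il11a in 9 and of ackr3b in 6 of 15. The adjusted p then reached 0.0553 for ntf3, 0.0811 for bmp2a, 0.0772 for il11a and 0.0609 for ackr3b.

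stc1 was also the only call among 22 tested ionocyte markers, of which 11 had an unadjusted p under 0.05, with a median log2 difference of 1.73. Their summed level was 1425 to 16632 TPM in mutant gill and 776 to 3949.8 TPM in mutant epidermis, and 4 of the 40 listed genes were at 0 in all 15 libraries. Of the genes of ion-transporting cells, the 3 that follow were each high in 1 or 2 gill libraries. In mutant gill 3 ca15a, a carbonic anhydrase, had 1004 TPM, rhcgb, an ammonia channel, had 1947 TPM, and foxi3b, their fate factor, had 841 TPM. In mutant gill 2 rhcgb had 525 TPM and foxi3b 100.5 TPM, while ca15a had 1.80 TPM. In mutant epidermis none of the 3 exceeded 3.09 TPM. stc1 in mutant gill 3 was 124 TPM, below the gill median, and its log2 difference without mutant gill 3 was 6.53.

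Other genes named for the size of their rise in gill have varied roles. fthl28, which resembles the heavy chain of the iron store ferritin, stood at 21.6 to 955 TPM (median 444 TPM) in mutant gill and at 1.24 to 10.003 TPM (median 4.71 TPM) in mutant epidermis (log2 difference 5.83 ± 0.82 SE, adjusted p = 0.00014). carhsp1, an RNA-binding cold shock protein, stood at 18.8 to 221 TPM (median 103 TPM) in mutant gill and at 0 to 15.09 TPM (median 0.314 TPM) in mutant epidermis (log2 difference 5.48 ± 0.92 SE, adjusted p = 0.00129). apoeb, an apolipoprotein that macrophages also make, stood at 4.901 to 2095 TPM (median 110.03 TPM) in mutant gill and at 0 to 10.4 TPM (median 0.474 TPM) in mutant epidermis (log2 difference 5.88 ± 1.097 SE, adjusted p = 0.00373). The libraries did not overlap for fthl28 and carhsp1, and for apoeb they did. pstpip2, an F-BAR protein that binds membranes, and thoc1, a subunit of the complex that couples transcription to mRNA export, had medians of 146 and 99.5 TPM in mutant gill, against 0.618 and 0.5999 TPM in mutant epidermis (log2 differences 5.24 and 5.29, adjusted p = 0.00324 and 0.003402). tnnc1b, a troponin C, and pdia2, a protein disulfide isomerase, had medians of 91.9 and 53.5 TPM in mutant gill, against 0 and 0.0922 TPM in mutant epidermis (log2 differences 5.32 and 5.500, adjusted p = 0.00606 and 0.0104). These 4 genes did not overlap between the tissues. pdia2 lost its call when low values, under 1% of the highest library, were set to 0 (adjusted p = 0.0997).

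Adhesion and keratin genes moved in both directions. cdh1, which encodes E-cadherin, stood at 169 to 658 TPM (median 469.8 TPM) in mutant gill and at 25.2 to 161 TPM (median 68.1 TPM) in mutant epidermis, without overlap (log2 difference 2.55 ± 0.52 SE, adjusted p = 0.00827). cldnf, a tight junction claudin, had medians of 58.7 TPM in mutant gill and 0.188 TPM in mutant epidermis (log2 difference 4.91 ± 1.07 SE, adjusted p = 0.0148), and overlap was absent here too. These 2 were the calls of 40 tested claudins, cadherins and adhesion genes (median 0.60). Under quantile normalization 2 of that list were higher and 2 lower, and under median centring 0 were higher and 2 lower. krt18a.1, a simple epithelial keratin, stood at 237 to 5065 TPM (median 683 TPM) in mutant gill and at 9.501 to 560.4 TPM (median 99.6 TPM) in mutant epidermis (log2 difference 3.06 ± 0.67 SE, adjusted p = 0.0148).

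3 keratins that mark superficial keratinocytes were lower in gill. krt91 stood at 4.49 to 321 TPM (median 18.2 TPM) in mutant gill and at 399 to 2379 TPM (median 1549.6 TPM) in mutant epidermis, without overlap (log2 difference -5.48 ± 0.76 SE, adjusted p = 0.000106). krt5 stood at 170.2 to 467 TPM (median 320.04 TPM) in mutant gill and at 329.7 to 9242 TPM (median 942 TPM) in mutant epidermis (log2 difference -2.26 ± 0.53 SE, adjusted p = 0.0246). krt4 stood at 227 to 905 TPM (median 385 TPM) in mutant gill and at 224 to 2559 TPM (median 1861 TPM) in mutant epidermis (log2 difference -1.77 ± 0.45 SE, adjusted p = 0.0379). The overlap of krt4 came from mutant epidermis 7, at 224 TPM. Without that library its difference was -2.21 (adjusted p = 0.000799), and that of krt91 was -5.78 (adjusted p = 8.16e-05). krt5 lost its call without mutant epidermis 1, 2 or 6 (highest adjusted p = 0.0628) and krt4 in 10 of 15 fits (highest 0.0865, without mutant epidermis 6).

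Ictacalcins are S100-type calcium-binding proteins of fish epithelia, and both tested here were lower in gill. icn2 stood at 0 to 63.9 TPM (median 6.54 TPM) in mutant gill and at 165 to 2794 TPM (median 903 TPM) in mutant epidermis, without overlap (log2 difference -6.76 ± 0.81 SE, adjusted p = 1.7e-05). icn was far more abundant, at 4677 to 15646 TPM (median 7648 TPM) in mutant gill and at 10777 to 40528 TPM (median 17909 TPM) in mutant epidermis (log2 difference -1.39 ± 0.26 SE, adjusted p = 0.00373), and overlapped; its call was lost under quantile normalization (adjusted p = 0.0876). s100v1, of the same protein family, went the other way, at 171 to 1049 TPM (median 389.6 TPM) in mutant gill and at 3.93 to 134 TPM (median 9.33 TPM) in mutant epidermis, without overlap (log2 difference 4.21 ± 0.76 SE, adjusted p = 0.00288). Among 15 tested annexins and S100 proteins these were the calls, 1 higher and 2 lower (median 0.29). Among 12 tested markers of superficial keratinocytes 2 were higher, cldnf and krt18a.1, and 4 were lower, krt91, icn, krt5 and krt4 (median -0.63). Under median centring that keratinocyte list gave 0 higher and 6 lower, and under quantile normalization 2 and 5. Its summed level was 7218 to 18005 TPM in mutant gill and 15410.2 to 48051 TPM in mutant epidermis. Mutant epidermis 7, low in krt4 and krt91, had 39847 TPM, of which icn alone gave 37075 TPM. In the highest libraries icn gave 40528 of 48051 TPM (mutant epidermis 1) and 15646 of 18005 TPM (mutant gill 7). The sum is therefore not separate from the result for icn. The part of keratinocyte RNA in these differences was not tested.

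**Figure D3:**
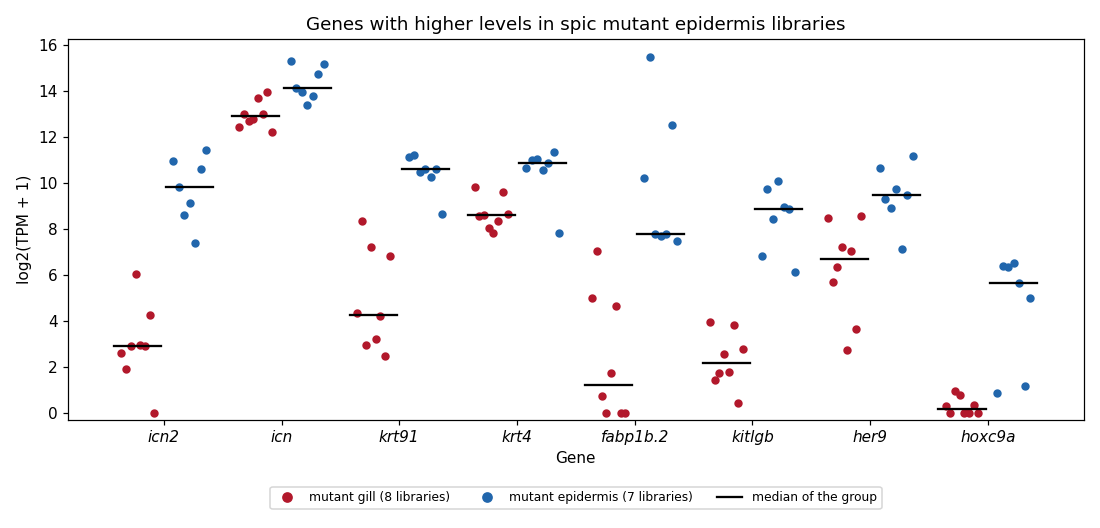
Level on the log2(TPM + 1) scale of 8 genes in mutant gill libraries (red, 8 points a gene) and mutant epidermis libraries (blue, 7 points a gene), with a black line at each median. icn2, krt91, fabp1b.2 and kitlgb show no overlap; the lowest blue point of krt91 and krt4, at 399 and 224 TPM, is mutant epidermis 7.

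Among genes without clone names fabp1b.2, a fatty acid binding protein, had the largest fall in gill. It stood at 0 to 129 TPM (median 1.47 TPM) in mutant gill and at 175 to 46055 TPM (median 221 TPM) in mutant epidermis, without overlap (log2 difference -7.46 ± 1.202 SE, adjusted p = 0.000839). Within epidermis it varied widely, with 46055 TPM in mutant epidermis 2, 5909.8 TPM in mutant epidermis 6 and 1199.9 TPM in mutant epidermis 1. The gill libraries with the same 3 numbers were the only gill libraries above 3 TPM. They had 129 TPM in mutant gill 2, 24.2 TPM in mutant gill 6 and 30.4 TPM in mutant gill 1, and what the numbers share is not given. Mutant epidermis 3, 4, 5 and 7 lay close together at 175 to 221 TPM, each under 1% of the value in mutant epidermis 2. Whether low values of a gene came from carry-over between libraries, of the same number or of the same group, was not tested, here or for calb2a. When values under 1% of its highest library were set to 0, fabp1b.2 no longer passed the filter on low values. Its near copies were not separated here, and how reads shared between copies were counted is not given, so its level is uncertain. Among 13 tested fatty acid elongases, binding proteins and apolipoproteins it was the only gene lower in gill, and apoeb the only gene higher, with 9 at an unadjusted p under 0.05 (median 2.25). The rank test called 4 of the 13 as higher and 1 as lower, and under each of the other scalings 1 was higher and 2 were lower.

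kitlgb, a ligand of the Kit receptor that guides pigment cells, stood at 0.341 to 14.2 TPM (median 3.65 TPM) in mutant gill and at 68.1 to 1073 TPM (median 463 TPM) in mutant epidermis, without overlap (log2 difference -6.12 ± 0.81 SE, adjusted p = 6.69e-05). her9, a Hes-type repressor, stood at 5.63 to 378 TPM (median 104 TPM) in mutant gill and at 139 to 2301 TPM (median 705 TPM) in mutant epidermis (log2 difference -3.27 ± 0.77 SE, adjusted p = 0.0238), and was the only call of 28 tested Notch pathway genes (9 at an unadjusted p under 0.05, median 0.30). In that list the rank test called 0 genes as lower and 1 as higher, and under median centring 3 were lower. Between the tissues kitlgb was the 1 gene lower in gill among 29 tested axon guidance ligands and receptors, where 3 were higher, ntf3 among them (median 0.96), and under median centring 0 were higher. esr2a, an oestrogen receptor, stood at 0 to 12.2 TPM (median 0.331 TPM) in mutant gill and at 4.49 to 142 TPM (median 78.9 TPM) in mutant epidermis (log2 difference -5.08 ± 0.98 SE, adjusted p = 0.00576). Of 25 tested nuclear receptors esr2a was the only gene lower in gill, and 1 gene, nr4a3, was higher (median 0.30).

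Of the remaining genes named for the size of their fall, rfc2, a subunit of the clamp loader of DNA replication, stood at 0 to 0.585 TPM in mutant gill and at 1.001 to 125 TPM (median 62.9 TPM) in mutant epidermis, without overlap (log2 difference -4.88 ± 0.98 SE, adjusted p = 0.00741). phc2b, a Polycomb group gene, had medians of 1.38 TPM in mutant gill and 125 TPM in mutant epidermis (log2 difference -4.82 ± 0.95 SE, adjusted p = 0.00607). sqlea, squalene epoxidase of sterol synthesis, was at or under 1.08 TPM in mutant gill, against a median of 47.8 TPM in mutant epidermis (log2 difference -4.48 ± 1.04 SE, adjusted p = 0.0234). limma called 0 of 41 tested cell cycle and DNA replication genes, a list without rfc2, with 8 at an unadjusted p under 0.05 and a median difference of -0.74. The rank test called 1 of them as lower, and under median centring 2 were lower.

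adra2c, an alpha-2 adrenergic receptor, was at or under 0.747 TPM in mutant gill, against a median of 61.2 TPM in mutant epidermis (log2 difference -4.43 ± 1.04 SE, adjusted p = 0.0243). slitrk4, a neural adhesion protein, had medians of 0.235 TPM in mutant gill and 74.5 TPM in mutant epidermis (log2 difference -4.31 ± 1.11 SE, adjusted p = 0.0412), and was the only call of 24 tested neural adhesion molecules (median 0.45). yjefn3 and snx10a, a sorting nexin, had medians of 0.882 and 0.491 TPM in mutant gill, against 156 and 63.6 TPM in mutant epidermis (log2 differences -4.85 and -4.32, adjusted p = 0.0234 and 0.0337). The call of yjefn3 was lost without mutant epidermis 4 or 6 (highest adjusted p = 0.0516). That of snx10a was lost in 10 of 15 fits without a library (highest 0.0788, without mutant epidermis 5) and that of slitrk4 in 11 (highest 0.0841, without mutant epidermis 4).

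Some sensory and neuroendocrine genes were high in both tissues; 22 of 71 listed fate factors and 18 of 70 listed granin and neuropeptide genes passed the filter on low values. sox2, chga and scgn were chosen after their values were seen. scgn, the calcium sensor secretagogin of neuroendocrine cells, stood at 1130.0 to 3309.5 TPM (median 1843 TPM) in mutant gill and at 284 to 4756 TPM (median 2960.2 TPM) in mutant epidermis (log2 difference -0.15 ± 0.41 SE, adjusted p = 0.907, 95% interval -0.998 to 0.701). atoh1a, the bHLH factor that specifies Merkel and hair cells, stood at 291 to 969.8 TPM (median 813 TPM) in mutant gill and at 40.2 to 780.2 TPM (median 589 TPM) in mutant epidermis (log2 difference 0.98 ± 0.55 SE, adjusted p = 0.395, 95% interval -0.14 to 2.099). sox2, a factor of sensory and stem cells, stood at 104 to 895 TPM (median 289 TPM) in mutant gill and at 112 to 433 TPM (median 327 TPM) in mutant epidermis (log2 difference -0.04 ± 0.53 SE, adjusted p = 0.986, 95% interval -1.13 to 1.06).

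The ranges of all 3 genes overlapped, and the interval leaves room for a difference of about 1 log2 unit in either direction for sox2, and for scgn of 0.998 towards epidermis and 0.701 towards gill. chga, which encodes the granule protein chromogranin A, stood at 73.8 to 582 TPM (median 336 TPM) in mutant gill and at 68.5 to 869.8 TPM (median 417 TPM) in mutant epidermis (log2 difference -0.32 ± 0.54 SE, adjusted p = 0.832, 95% interval -1.42 to 0.79). rgs5a, a brake on G-protein signalling, stood at 588 to 1611 TPM (median 1049 TPM) in mutant gill and at 185 to 4627 TPM (median 3134 TPM) in mutant epidermis (log2 difference -0.94 ± 0.47 SE, adjusted p = 0.329). Mutant epidermis 7 was the lowest library of both tissues for rgs5a and scgn, at 185 and 284 TPM. Without it rgs5a was lower in gill (log2 difference -1.51, adjusted p = 0.00799), while scgn, at -0.64, and atoh1a, at 0.47, still missed the threshold (adjusted p = 0.221 and 0.654).

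**Figure D4:**
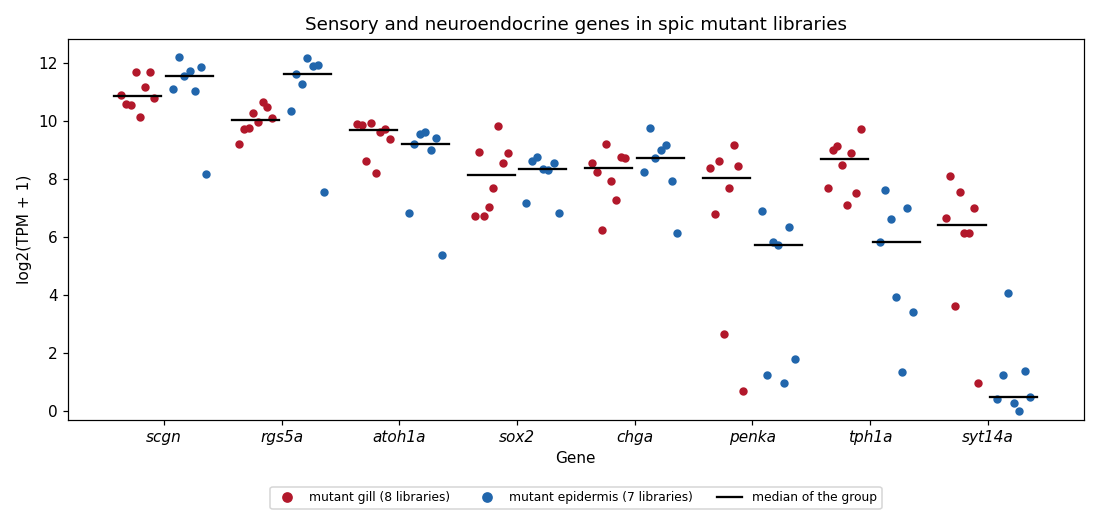
Level on the log2(TPM + 1) scale of 8 sensory and neuroendocrine genes in mutant gill libraries (red, 8 points a gene) and mutant epidermis libraries (blue, 7 points a gene), with a black line at each median. The groups overlap for every gene shown; the lowest blue point of scgn and rgs5a, at 284 and 185 TPM, is mutant epidermis 7, and tph1a had medians of 414 TPM in gill and 56.2 TPM in epidermis.

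The gene of the enzyme that starts serotonin synthesis was higher in gill. tph1a, a tryptophan hydroxylase, stood at 138 to 851 TPM (median 414 TPM) in mutant gill and at 1.52 to 197 TPM (median 56.2 TPM) in mutant epidermis (log2 difference 3.34 ± 0.78 SE, adjusted p = 0.0238), with overlap. The call was lost without mutant gill 2 (adjusted p = 0.0505) and under median centring (adjusted p = 0.1495). tph1a was the only call of 14 tested members of the 16 Merkel-like and neuroendocrine markers, whose median difference was -0.12 against 0.47 over all genes tested. It was also the only call of 6 tested genes of serotonin and catecholamine synthesis, storage and breakdown (median -0.09). Of 22 tested sensory and neuroendocrine fate factors limma and the rank test called 0 (2 at an unadjusted p under 0.05, median -0.22), and under median centring 1 was lower. Of 18 tested granins, neuropeptide precursors and processing enzymes limma called 0 (7 at an unadjusted p under 0.05, median 0.03), the rank test called 1 in each direction, and under median centring 2 were lower. penka, which encodes the opioid precursor proenkephalin, had medians of 269 TPM in mutant gill and 51.2 TPM in mutant epidermis and did not pass (log2 difference 2.45 ± 1.22 SE, adjusted p = 0.323). calb2a, the calcium buffer calretinin, was high in 1 library only, at 776 TPM in mutant gill 1, and at or under 4.14 TPM in mutant epidermis (adjusted p = 0.296).

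Among genes of excitable cells single members differed. syt14a, a synaptotagmin, stood at 0.942 to 273 TPM (median 85.1 TPM) in mutant gill and at 0 to 15.8 TPM (median 0.388 TPM) in mutant epidermis (log2 difference 4.65 ± 1.07 SE, adjusted p = 0.0234), the 1 call of 27 tested genes of synaptic and granule exocytosis (median 0.31). pvalb8, a parvalbumin that buffers calcium, stood at 15.7 to 4426 TPM (median 352 TPM) in mutant gill and at 0.481 to 125 TPM (median 9.17 TPM) in mutant epidermis (log2 difference 4.66 ± 1.17 SE, adjusted p = 0.0359), the 1 call of 15 tested EF-hand proteins (median 0.24). Of 22 tested potassium channels (median 0.20), kcnk1a was higher in gill and kcnh5a lower. The rank test called 3 of the potassium channels as higher and 0 as lower, and under median centring 0 were higher and 3 lower. The EF-hand list had 0 calls by the rank test and under both other scalings, and the exocytosis list 0 higher and 1 lower under median centring.

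kcnk1a, a leak channel, had medians of 63.3 TPM in mutant gill and 0 TPM in mutant epidermis (log2 difference 4.47 ± 0.99 SE, adjusted p = 0.0175). kcnh5a, a voltage-gated channel, had medians of 1.72 TPM in mutant gill and 41.1 TPM in mutant epidermis (log2 difference -3.81 ± 0.99 SE, adjusted p = 0.0433). adrb3a, a beta adrenergic receptor, had a median of 32.6 TPM in mutant gill and was at or under 0.862 TPM in mutant epidermis, without overlap (log2 difference 4.49 ± 1.05 SE, adjusted p = 0.0238). With adra2c it made the 2 calls of 10 tested neurotransmitter receptors (median 0.31), an adrenergic receptor in each direction. Under median centring adrb3a was not called (adjusted p = 0.0952). limma and the rank test called 0 of 10 tested voltage-gated calcium and sodium channels (0 at an unadjusted p under 0.05, median -0.14) and 0 of 14 tested mechanosensitive, Trp, Asic, purinergic and cyclic nucleotide channels (4 at an unadjusted p under 0.05, median 1.26). Of 35 tested regulators of G-protein signalling and G proteins 1, the G-protein subunit gng13b, was higher in gill (median 0.61), and 0 were by the rank test or under either other scaling. Leaving out mutant gill 2 ended the calls of syt14a (adjusted p = 0.0553) and adrb3a (adjusted p = 0.0505). That of pvalb8 was lost in 7 and that of kcnh5a in 12 of 15 fits (highest 0.0775 and 0.0942, both without mutant epidermis 4).

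Some heat shock genes, which respond to stress during handling as well as in tissue, were higher in gill. Of 41 tested heat shock proteins and co-chaperones 6 rose and 0 fell, and 4 were called under quantile normalization and 0 under median centring, where the 5 described here kept their direction. hsp70l stood at 102 to 2244 TPM (median 385 TPM) in mutant gill and at 5.91 to 146 TPM (median 38.9 TPM) in mutant epidermis (log2 difference 3.64 ± 0.71 SE, adjusted p = 0.00606). dnajb1b, a partner of Hsp70, stood at 195 to 1000.5 TPM (median 564 TPM) in mutant gill and at 28.5 to 244 TPM (median 83.3 TPM) in mutant epidermis (log2 difference 2.702 ± 0.53 SE, adjusted p = 0.00607). hsp70.1, hsp70.2 and hsp70.3 had medians of 381, 872 and 1069 TPM in mutant gill, against 61.2, 120.1 and 129 TPM in mutant epidermis.

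These Hsp70 genes are near-identical copies, so the level of each is uncertain and they are not separate observations. All 5 of these genes overlapped between the tissues. The list's share of all TPM was 0.387% to 1.62% in mutant gill, the highest in mutant gill 2, and 0.195% to 0.389% in mutant epidermis. The call of hsp70.1 was lost without mutant gill 2 (adjusted p = 0.0512) and that of hsp70.3 in 10 of 15 fits. Among 57 tested immediate-early genes 3 were higher in gill by limma and by quantile normalization, while under median centring 1 was lower. dusp2, a phosphatase that ends MAP kinase signals, stood at 266 to 863 TPM (median 523 TPM) in mutant gill and at 29.1 to 241 TPM (median 114 TPM) in mutant epidermis, without overlap (log2 difference 2.45 ± 0.49 SE, adjusted p = 0.00674). zfp36l1a, which destabilises mRNA, and nr4a3, an orphan nuclear receptor, had medians of 334 and 167 TPM in mutant gill, against 42.4 and 17.98 TPM in mutant epidermis (adjusted p = 0.0176 and 0.0234). The 61 immediate-early genes listed, tested or not, made up 1.84% to 5.47% of TPM in mutant gill and 1.55% to 2.68% in mutant epidermis. The part of sorting and handling in these differences was not tested.

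Broad machinery differed little in number of calls. Of 78 tested ribosomal protein genes limma and the rank test called 0 (12 at an unadjusted p under 0.05, median 0.52), and of 87 tested nuclear genes of oxidative phosphorylation 2 were higher (median 0.59), 0 under either other scaling. mt-co1, a subunit of cytochrome oxidase encoded in mitochondrial DNA, stood at 8989.8 to 17104 TPM (median 11531 TPM) in mutant gill and at 15675 to 30300.0 TPM (median 20966 TPM) in mutant epidermis, with overlap (log2 difference -0.81 ± 0.15 SE, adjusted p = 0.00324). It was the 1 call of 13 mitochondrially encoded features (median -0.21) and was not called under quantile normalization (adjusted p = 0.416), while under median centring 3 of these features were lower. The share of TPM of these 13 features alone was 4.60% to 13.6% in mutant gill and 7.32% to 12.2% in mutant epidermis. They need not be all the mitochondrial features of the table, so the whole mitochondrial share is not given. limma called 0 genes in the lists that follow, which are given with the count at an unadjusted p under 0.05. These were 13 of 51 lysosome genes (median 0.84), 7 of 43 antioxidant genes (median 0.63), 2 of 31 genes of MHC class I loading and the immunoproteasome (median 0.41), 1 of 6 genes of MHC class II (median 0.79) and 2 of 17 interferon-stimulated genes (median -0.24). Signal and matrix lists gave 3 of 15 Wnt genes (median 0.41), 6 of 14 Fgf and hedgehog genes (median 1.27) and 0 of 7 integrins and laminins (median 0.11). The rank test called 1 lysosome gene as higher in gill and 0 genes of these other lists. Under both other scalings 1 Wnt gene was lower in gill, and the others of these lists had 0 calls.

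Markers of other cell types were compared as summed levels and by their called members. For 31 myeloid and macrophage markers the sum was 777 to 3537 TPM in mutant gill and 386 to 1202 TPM in mutant epidermis, with 0 of 17 tested members called by limma, 4 at an unadjusted p under 0.05 and 1 by the rank test (median 0.45), and 7 of 31 at 0 in all 15 libraries. For 22 T and NK cell markers it was 437 to 1651 TPM in mutant gill and 75.3 to 412 TPM in mutant epidermis. Without gata3, which is also a pharyngeal gene, the sum of the other 21 was 13.5 to 444 TPM in mutant gill and 71.3 to 245 TPM in mutant epidermis, and overlapped. Of the 5 T and NK cell markers tested gata3 was the 1 call (median -1.09), and 13 of the 22 stayed under 1 TPM in all 15 libraries. For 9 mucous cell markers the sum was 72.8 to 4669.9 TPM in mutant gill and 32.4 to 1525 TPM in mutant epidermis, with 1 of 4 tested, pvalb8, higher in gill (median 1.05). For 11 tuft and taste cell markers it was 878 to 2081 TPM in mutant gill and 1169 to 1984 TPM in mutant epidermis, with 1 of 5 tested, gng13b, higher (median 0.93). Sums for erythrocyte markers reached 188 TPM in mutant gill and 63.1 TPM in mutant epidermis, and those for neutrophil markers 505 TPM in mutant gill and 58.6 TPM in mutant epidermis. Endothelial and thrombocyte sums were highest in mutant gill 6, at 472 and 109 TPM, against at most 31.6 and 1.25 TPM in mutant epidermis. limma called 0 genes of these 4 lists, of which 4 neutrophil, 1 erythrocyte and 1 endothelial gene could be tested, with 2, 1 and 1 at an unadjusted p under 0.05 and 1 endothelial call by the rank test. Lists for basal keratinocytes, B cells, fibroblasts, cartilage, muscle, pigment cells, and neurons and glia gave 0 calls by limma, with 1 to 4 members tested in each, 0 or 1 at an unadjusted p under 0.05 and 1 call by the rank test, in the list for neurons and glia. The part of other cell types in the tissue differences was not tested.

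Some of the strongest differences lay in genes that carry only a clone name or an identifier, 40 of the 174 calls, 28 higher and 12 lower in gill; the 5 that follow were chosen after their values were seen and are given no role. si:ch211-196h16.12 stood at 6167 to 17887 TPM (median 11966 TPM) in mutant gill and at 10.8 to 107 TPM (median 33.3 TPM) in mutant epidermis (log2 difference 8.23 ± 0.41 SE, adjusted p = 7.58e-14). si:dkey-193p11.2 stood at 627 to 3856 TPM (median 1884 TPM) in mutant gill and at 11299 to 76731 TPM (median 69226 TPM) in mutant epidermis (log2 difference -4.81 ± 0.38 SE, adjusted p = 2.6e-09). wu:fk65c09 stood at 0 to 73.5 TPM (median 0.945 TPM) in mutant gill and at 119.7 to 28451 TPM (median 228 TPM) in mutant epidermis (log2 difference -7.77 ± 1.21 SE, adjusted p = 0.000531).

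The libraries of the tissues did not overlap for any of these 3, which kept their calls in all 29 alternatives planned. When values under 1% of the highest library were set to 0, wu:fk65c09 and the 2 genes that follow no longer passed the filter on low values, while the other two kept their calls. wu:fk65c09 was highest in mutant gill 2, 6 and 1, at 73.5, 43.8 and 12.01 TPM, and in mutant epidermis 2, 6 and 1, at 28451, 11643 and 5156 TPM. si:ch73-106l15.4 had medians of 525 TPM in mutant gill and 0.546 TPM in mutant epidermis, and ENSDARG00000117741 of 241 TPM in mutant gill and 0 TPM in mutant epidermis (log2 differences 7.11 and 7.13, adjusted p = 0.00107 and 0.00129). For both the highest gill libraries were mutant gill 7, at 20669 and 11839 TPM, and mutant gill 5, and the highest epidermis libraries bore the same numbers, mutant epidermis 7, at 63.4 and 38.7 TPM, and mutant epidermis 5. Libraries of other numbers in the same group also held values far under the highest. wu:fk65c09 lay at 119.7 to 228 TPM in mutant epidermis 3, 4, 5 and 7. In mutant gill 1 to 4 si:ch73-106l15.4 lay at 62.3 to 103 TPM. Carry-over between libraries, of the same number or of the same group, was not tested for these genes either. The most abundant feature of the table, ENSDARG00000080337, took 9.22% to 16.4% of TPM in mutant gill and 17.3% to 25.3% in mutant epidermis in a scale whose sum is fixed. What it encodes is not given here, and it is not among the 13 mitochondrially encoded features above. Without it 113 genes were higher and 45 lower in gill.

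Sibling libraries were distinct from those of the mutants, but some values followed the library number across genotypes. wu:fk65c09, highest in mutant epidermis 2, had 66.02 TPM in sibling gill 2 and 11.49 TPM in sibling gill 1. The other sibling gill libraries had at most 0.521 TPM. In sibling epidermis the order followed the numbers less well. There wu:fk65c09 had 66.97 TPM in sibling epidermis 2, 28.83 TPM in 6 and 10.99 TPM in 1. Sibling epidermis 5, whose number was low in mutant epidermis, had 29.75 TPM. fabp1b.2 was also higher in sibling epidermis 5 (128.6 TPM) than in sibling epidermis 2 (80.5 TPM). si:ch73-106l15.4, highest in mutant gill 7 and 5, had 44.99 and 14.48 TPM in sibling epidermis 7 and 5. Sibling gill 4, outside these numbers, had 14.38 TPM. Carry-over between genotypes was not tested, so siblings may not be independent of mutants. The genes tested were chosen by the filter on mutant libraries, so genes detected only in siblings were left out. Siblings also gave 5 gill libraries against 8 from mutants. The numbers of calls in the 2 genotypes are therefore not like for like. In siblings 74 genes passed, 0.732% of genes tested. Of these 22 genes were called in both genotypes, all with the same sign. That is 12.6% of the mutant calls and 29.7% of the sibling calls, although the mutant calls came from a fit of 15 libraries and the sibling calls from a fit of all 27. In the fit of 27 libraries, 701 genes were called in mutants (6.93% of genes tested) and 31 of them in siblings too, all with the same sign, which is 4.42% of those mutant calls and 41.9% of the sibling calls. Of the 174 genes called in mutants 130 (74.7%) had the same sign in siblings, against 55.0% of all genes tested. Pax genes were part of this overlap: pax9 stood at 31.3 to 136 TPM in sibling gill and 0.139 to 0.901 TPM in sibling epidermis (log2 difference 5.93, adjusted p = 7.63e-07). pax1a and pax1b also passed, at 4.096 and 5.19 log2 units (adjusted p = 0.0327 and 2.32e-05). The other pharyngeal genes described, gata3 and tbx1, did not pass in siblings. gata3 had a sibling difference of 2.56 log2 units (adjusted p = 0.347). tbx1 was at or under 1.36 TPM in sibling gill, with a sibling difference of -0.16 log2 units. On the epidermis side icn2, icn, krt91, krt4, dlx3b and si:dkey-193p11.2 passed in siblings as well, and icn2 had a log2 difference of -5.44 there (adjusted p = 0.000206). apoeb, pvalb8, dusp2, hsp70l, dnajb1b and hsp70.1 to hsp70.3 passed in siblings with higher levels in gill. atoh1a, which did not pass in mutants, also passed in siblings, at 3.28 log2 units (limma adjusted p = 0.0466). Its sibling levels were lower, with medians of 121 TPM in gill and 4.27 TPM in epidermis, against 813 and 589 TPM in mutants. The difference between its tissue differences in the 2 genotypes did not pass (limma adjusted p = 0.493).

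**Figure D5:**
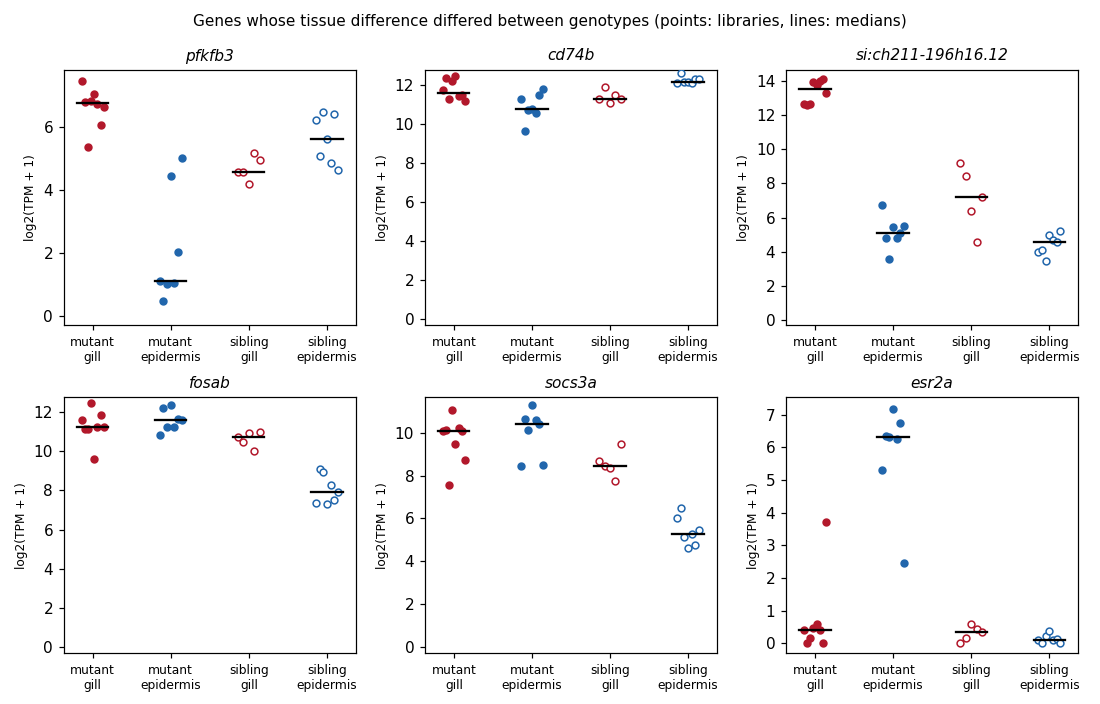
Level on the log2(TPM + 1) scale of 6 genes in mutant gill, mutant epidermis (filled points), sibling gill and sibling epidermis (open points), with a black line at each median. pfkfb3 had medians of 107 TPM in mutant gill and 1.15 TPM in mutant epidermis, but 22.6 TPM in sibling gill and 48.3 TPM in sibling epidermis, whereas fosab and socs3a were lower in sibling epidermis than in the other 3 groups.

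Where the tissue difference was set against that of siblings in a single fit of 27 libraries, 9 genes passed the test of the difference itself, 0.0890% of genes tested, 4 in the direction of gill in mutants and 5 in the direction of epidermis; 7 are described here and the other 2 carry clone names or identifiers. pfkfb3 had 17.3 to 35.3 TPM in sibling gill and 23.9 to 87.5 TPM in sibling epidermis, so that its tissue difference exceeded that of siblings by 5.38 log2 units (95% interval 3.38 to 7.39, adjusted p = 0.0153). si:ch211-196h16.12 had 22.8 to 576 TPM in sibling gill and 9.99 to 36.4 TPM in sibling epidermis, a smaller difference in the same direction (5.498 log2 units between the differences, adjusted p = 0.00044). cd74b, the invariant chain of MHC class II, had medians of 3119 TPM in mutant gill and 1745 TPM in mutant epidermis, but 2484 TPM in sibling gill and 4566 TPM in sibling epidermis (1.72 log2 units, adjusted p = 0.0443).

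fosab, an AP-1 factor, had medians of 2432 TPM in mutant gill and 3144 TPM in mutant epidermis, and of 1680.1 TPM in sibling gill and 239.9 TPM in sibling epidermis (-2.88 log2 units, adjusted p = 0.00752). socs3a, an inhibitor of cytokine signalling, had medians of 1093 TPM in mutant gill and 1362 TPM in mutant epidermis, and of 347 TPM in sibling gill and 37.3 TPM in sibling epidermis (-3.503 log2 units, adjusted p = 0.0321). For these 2 genes the tissues differed in siblings and did not pass in mutants, with mutant differences of -0.31 and -0.34. esr2a was at or under 0.517 TPM in sibling gill and 0.287 TPM in sibling epidermis, so only mutant epidermis held more than 12.2 TPM (-5.25 log2 units, adjusted p = 0.0216). spon1b, a secreted matrix protein, had medians of 0 TPM in mutant gill and 35.2 TPM in mutant epidermis, and of 2.64 TPM in sibling gill and 0.076004 TPM in sibling epidermis (-5.65 log2 units, adjusted p = 0.0443). It reached 1 TPM in 5 of 7 mutant epidermis and 0 of 8 mutant gill libraries. So it passed the filter on low values only through the mutant tissue where it was high. Leaving out any of those 5 epidermis libraries took spon1b out of the test, which left 22 fits. The calls of pfkfb3, fosab and si:ch211-196h16.12 held in all 27 fits without 1 library; esr2a lost its call in 2, socs3a in 9, cd74b in 17 of 27 and spon1b in 10 of 22. The adjusted p then reached 0.0559 for esr2a, 0.0994 for socs3a and 0.101 for the other 2. Under median centring pfkfb3 and cd74b were not called (adjusted p = 0.113 and 0.474). With the replicate number as a block 4 of the 7 genes were not called, pfkfb3 and socs3a (both adjusted p = 0.0893), spon1b (0.108) and cd74b (0.128). cd74b was also lost under quantile normalization (adjusted p = 0.0570), and cd74b and spon1b with a pseudocount of 10 (adjusted p = 0.0538 and 0.102). With the number of calls so small, and from 3 to 27 as single libraries were left out, a gene that missed the threshold is not shown to have the same tissue difference in both genotypes.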

How the data were processed

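The authors deposited 1 table of TPM values for 32520 genes with a column for each of the 27 libraries, and no replicates were pooled. Per the submitters' processing notes STAR, featureCounts and DESeq2 were used with the builds GRCz11 and danRer11. Not given in the sources used here are their versions and roles, the annotation, strandedness, and how reads shared between genes were treated, so near-identical and overlapping genes are uncertain. TPM keeps no depth, so no counting error can be given. Symbols were used as deposited, and 29201 identifiers were found in a table of gene names. No coordinates or sequences are given, because no genome of that build was used here.

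From these values log2(TPM + 1) was computed. Genes that reached 1 TPM in 5 or more of the 15 mutant libraries were tested with limma 3.58.1 in R 4.3.3 (lmFit, eBayes with trend), two-sided, with Benjamini-Hochberg adjustment over 10115 genes and a threshold of 0.05. The sibling difference and the difference of differences came from a fit of all 27 libraries. spic and the number of detected genes were compared with an exact permutation test over 6435 splits. The procedure was run on simulated data with known differences and independent normal noise. These held no genes high in 1 library only, so the run does not show how the fit handles such genes.

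Groups and gene lists were taken from labels and textbook knowledge, but the members and lists were chosen with earlier results of these data known. Named genes were the 14 in each direction with the largest significant difference and a mean of 10 TPM or more in 1 tissue, without clone names, up to 5 members of each list with the smallest p, the Hox genes tested, and up to 5 genes in each direction for the difference of differences. The text describes a selection, made after values were seen, of the list members this rule allows. Outside the rule sox2, chga, scgn, krt4, foxi3b and the clone-named genes were also chosen after their values were seen. Alternatives were other pseudocounts, filters, scalings, weights, covariates, a replicate block, a rank test and leaving out libraries.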

Additional observations from a re-analysis of the deposited data

Results flagged for a closer look

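Single libraries far from the others of their group were looked for by Dixon's ratio, which chance exceeds in about 1 in 20 groups. The search covered every gene whose values are given, in mutant gill and in mutant epidermis. A part of the flags below is therefore due to the number of groups searched, and which ones cannot be told. Mutant epidermis 7 was the lowest epidermis library for krt91 (399 TPM), krt4 (224 TPM), esr2a (4.49 TPM), yjefn3 (2.08 TPM), rgs5a (185 TPM), scgn (284 TPM) and si:dkey-193p11.2 (11299 TPM), and the highest for carhsp1 (15.09 TPM) and inhbb (3.06 TPM). In the other epidermis libraries rfc2 was lowest in mutant epidermis 4 (1.001 TPM) and snx10a in mutant epidermis 2 (1.89 TPM). The highest epidermis values that stood apart were those of egln3 in mutant epidermis 5 (0.721 TPM), calb2a in mutant epidermis 1 (4.14 TPM), syt14a in mutant epidermis 3 (15.8 TPM), ca15a in mutant epidermis 3 (1.82 TPM) and spi1b in mutant epidermis 6 (0.296 TPM). For ca15a and spi1b all other epidermis libraries were at 0, where any value above 0 gives a ratio of 1.

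Among gill libraries, mutant gill 6 stood apart as the highest for spi1b (74.04 TPM), dlx3b (90.8 TPM) and slitrk4 (18.7 TPM), mutant gill 3 for ca15a (1004 TPM) and mpeg1.2 (35.1 TPM), and mutant gill 1 for calb2a (776 TPM) and snx10a (45.1 TPM). esr2a was highest in mutant gill 8 (12.2 TPM) and sqlea in mutant gill 5 (1.08 TPM). For spi1b, ca15a and calb2a the highest gill library and the highest epidermis library bear the same number.

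The tissue difference of mutants differed from that of siblings, by a test of that difference, for pfkfb3 (5.38 log2 units), si:ch211-196h16.12 (5.50), cd74b (1.72), spon1b (-5.65), esr2a (-5.25), socs3a (-3.50) and fosab (-2.88). Of these, spon1b passed the filter on low values only through mutant epidermis.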

How the results depend on the processing

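The count of 174 genes that differed between mutant gill and mutant epidermis was 476 with a pseudocount of 0.1 and 84 with 10, 61 without a filter on low values, 701 with all 27 libraries in 1 fit, 30 in the fit that allowed for the number of detected genes, 263 by the rank test and 92 without the 3 libraries with the fewest detected genes. It ranged from 97, without mutant gill 2, to 301, without mutant gill 8, when single libraries were left out. The 9 genes whose tissue difference differed between genotypes became 24 with a pseudocount of 0.1, and 3 to 27 when single libraries were left out. When single libraries were left out, the log2 difference of spic ranged from -1.24 to -0.59 (exact permutation p from 0.0892 to 0.379). The difference in detected genes ranged from 1161 to 1715 genes (exact permutation p from 0.00175 to 0.0413), and neither changed its side of the threshold. Among alternatives added after the data were seen, 118 genes passed when values under 1% of their highest library were set to 0. Of 71 described genes that passed, 48 did so without any single library, 61 under quantile normalization, 44 under median centring and 25 with the covariate. When values under 1% of their highest library were set to 0, 49 of the 71 passed. Those lost then included pvalb8 (adjusted p = 0.163), her9 (0.0737), aldh1a3 (0.0689), rdh10b (0.0648), krt18a.1 (0.0574), krt4 (0.0546) and tph1a (0.0512). The cause of these losses was not tested.

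Genes that changed sign did so without passing in either fit. With the detected-gene covariate these were spi1a (-0.43), mpeg1.1 (-0.20), sox2 (0.498), chga (0.55), scgn (0.28), socs3a (0.28) and fosab (0.16); under median centring spi1a (-0.54), mpeg1.1 (-0.84), atoh1a (-0.016) and cd74b (-0.12); and under quantile normalization spi1a (-0.53) and mpeg1.1 (-0.73). Without the 3 libraries with the fewest detected genes they were sox2 (0.0060), scgn (0.23) and socs3a (0.19), and without mutant gill 3 and 6 and mutant epidermis 7 spi1a (-0.050). Leaving out single libraries moved sox2 between -0.29 and 0.15 and scgn between -0.64 and 0.039.

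With the replicate number as a block 139 genes passed, 112 higher and 27 lower in gill, and 12 genes differed between genotypes, among them 3 of the 7 described. Same-numbered gill and epidermis libraries deviated together by correlations of 0.0340 to 0.0744, and each of the 7 numbers correlated best with its own; the labels do not say what a number marks, so the numbers were not taken to pair the libraries. Depth is unknown, and values of a few TPM may rest on few reads.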
